A study of Mus musculus with 18 samples.

Results

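The E2F family, its DP partner Tfdp1 and Mybl2 form a group of 10 genes that was followed through the activation of mouse splenic B cells. The members were taken by name from the deposited expression table and are E2f1, E2f2, E2f3, E2f4, E2f5, E2f6, E2f7, E2f8, Tfdp1 and Mybl2, which is 10 of the 16545 genes listed. All 10 were above 0 in every group of libraries. E2f7 and E2f8 averaged under 1 FPKM (fragments scaled to transcript length and to the fragments mapped in the library, thus a level per length) in resting control cells. B cells were purified from the spleens of C57BL/6 mice and cultured with LPS, a bacterial product that drives B cells to divide and to become plasma cells, for 0, 24 or 48 h. Control mice (CON) carried 1 copy of a Cre allele with intact Zbtb24, and the B cell specific knockout (B-CKO) mice carried the same Cre allele with Zbtb24 loxp/loxp. Thus both groups had Cre, whose expression limits the deletion to the B lineage, and the deletion removes exon 2 with the start codon. Each of the 6 groups of genotype and time held 3 libraries, each from 1 mouse, which gave 18 libraries. The libraries of a genotype carry the numbers 1 to 3 at each time, and the sources used here do not say whether a number stands for the same mouse at all times. An animal age or sex was not given for these libraries in the sources used here.

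E2F proteins are DNA-binding factors that decide whether genes for DNA synthesis are on or off. Most bind DNA as a pair with a DP protein, and in resting cells the retinoblastoma family (Rb1, Rbl1 and Rbl2, the pocket proteins) holds them in a silencing complex until D cyclins with CDK4 and CDK6 phosphorylate the pocket proteins. E2f1, E2f2 and E2f3 are known as activators, E2f4 and E2f5 as the pocket-bound repressors of quiescence, E2f6 as a repressor that works with Polycomb proteins, and E2f7 and E2f8 as atypical repressors that bind DNA with no DP partner. Mybl2 encodes B-MYB, itself a textbook E2F target, which joins the MuvB complex in S phase and with FOXM1 switches on the genes of G2 and mitosis. Resting splenic B cells are quiescent, and LPS brings them through G1 into S phase within a day.

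Because 8 of the 10 genes rose together in the first 24 h, the promoter windows of the members were searched for the sequences that E2F and MuvB are known to read. RefSeq windows of 300 bases (about 250 before to about 50 after a start site, differing slightly by strand, build GRCm38.p6) matched 8 members, with 11 windows in all, and E2f4 and E2f5 had none. The E2F element was taken as TTTCCCGC, TTTCGCGC, TTTGCCGC or TTTGGCGC on either strand. It was present in 5 of the 11 member windows (those of E2f2, E2f3, E2f7 and Tfdp1), against 2.26% of 32851 windows of all genes. A shorter core, CGCGGGA or GGCGGGA on either strand, was added after the windows had been read. That core overlaps the longer element and was present in 9 of the 11 member windows, with E2f1 the one member that had it in no window, against 15.0% of all windows. The CHR element, the MuvB sequence, was taken as TTTGAA or TTCGAA on either strand and was found in 3 of the 11, from E2f2, E2f3 and E2f8, against 19.2% of all windows. CCAAT on either strand was found in 5 of the 11, from E2f2, E2f3, E2f7 and E2f8, against 37.4%. The Tfdp1 windows overlap each other, so the 11 are not independent. A match is a description of letters in a window and was not tested as a binding site. The start sites of the E2f1, Mybl2 and E2f8 windows lie 465, 308 and 476 bases inside the outer edge of the annotated gene, so sequence before that edge was not searched.

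Stretches of 30 bases are shown for the members whose window held such letters, each read 5′ to 3′ on the gene's own strand. Capitals mark the E2F element in E2f2, E2f7 and Tfdp1, both the CHR and the E2F element in E2f3, the short core in Mybl2, E2f6 and the first E2f8 stretch, and the CHR element in the second E2f8 stretch. Where the element lies on the opposite strand, its reverse complement is shown, such as GCGGGAAA for TTTCCCGC in E2f3 and E2f7, GCGCGAAA for TTTCGCGC in Tfdp1 and TTCAAA for TTTGAA in E2f8.
E2f2 (chr4:136172294-136172323, plus strand): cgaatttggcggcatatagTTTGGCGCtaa
E2f3 (chr13:29986065-29986094, minus strand): aaatatggTTTGAAaagccgGCGGGAAAtc
E2f7 (chr10:110745229-110745258, plus strand): gcccgcgtccccGCGGGAAAcgctcccgcg
Tfdp1 (chr8:13338691-13338720, plus strand): ggaggagggcgccgaagGCGCGAAAaggcg
Mybl2 (chr2:163054605-163054634, plus strand): gcggcgccgacgcacttGGCGGGAgatagg
E2f6 (chr12:16810897-16810926, plus strand): cgaggaccggtgtgCGCGGGAgatctaacg
E2f8, first stretch (chr7:48881628-48881657, minus strand): tccgcgccCGCGGGAgcggctcgcgccggg
E2f8, second stretch (chr7:48881598-48881627, minus strand): agcgggttaatTTCAAAtcgggggctggac

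The deleted gene was lower in every B-CKO library than in any CON library of its time: Zbtb24 averaged 45.4, 17.6 and 15.2 FPKM in CON and 12.5, 10.9 and 10.4 FPKM in B-CKO cells at 0, 24 and 48 h. It passed the threshold of limma at none of the times (adjusted p = 0.1198, 0.0586 and 0.267). Its fragments outside exon 2 still count. The B cell markers Ms4a1, Cd79a, Cd79b, Cd22 and Pax5 did not differ between genotypes past the threshold at any of the times. Summed over 6 B cell markers, levels were 3944 to 5230 FPKM per library at 0 h and 2045 to 2648 FPKM later. T cell markers (8 genes) summed to 6.55 to 13.5 FPKM at 0 h and 0.73 to 2.27 FPKM later, and all 8 were called lower at 24 h than at 0 h in both genotypes, beside 30.7% (CON) and 32.3% (B-CKO) of all genes. Erythroid markers (6 genes) summed to 7.07 to 46.9 FPKM at 0 h and 0.13 to 4.09 FPKM later. NK markers (4 genes) went from 2.78 to 4.22 FPKM at 0 h to at most 0.24 FPKM, with all 4 at 0 in B-CKO cells at 48 h. Myeloid markers (7 genes) summed to 6.55 to 15.0 FPKM over all libraries, with S100a8 and S100a9 at 0 at 48 h in both genotypes. Plasma cell markers (4 genes) summed to 71.9 to 158 FPKM at 0 and 24 h and to 140.2 to 249.7 FPKM at 48 h. The part of these other cells in the changes below was not tested. In bulk RNA, fewer cells of a type and less RNA per cell cannot be told apart. The table gives no read counts, and the size of its smallest steps in 80 genes put the relative depth of the 0 h libraries at 0.887 to 0.901 and of the later ones at 1.05 to 1.06 among the 18.

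Levels per length in the CON libraries spanned from under 1 to over 100 FPKM, and the order of the genes changed with time. At 0 h E2f4 stood highest at 58.0 ± 7.96 FPKM (SD, n = 3 mice), followed by E2f2 at 20.5 ± 5.50, Tfdp1 at 11.2 ± 0.996 and E2f5 at 6.70 ± 1.03 FPKM. E2f3, E2f1, E2f6 and Mybl2 lay between 2.29 and 4.09 FPKM on average, and of these E2f6 overlapped both E2f1 and E2f3, E2f1 and E2f3 overlapped each other, and every Mybl2 library lay below them. E2f8 and E2f7 were lowest, at 0.917 ± 0.245 and 0.177 ± 0.0404 FPKM. At 24 h E2f4 and Tfdp1 stood next to each other at the top, with 117 ± 1.25 and 111 ± 2.83 FPKM and no overlap between their libraries, and Mybl2 came next at 57.0 ± 4.13 FPKM. E2f1, E2f2, E2f6, E2f8, E2f3, E2f5 and E2f7 followed in that order, and of these neighbours E2f6 and E2f8 overlapped. At 48 h Tfdp1 (112 ± 5.80 FPKM) stood above E2f4 (97.9 ± 5.53 FPKM), with every Tfdp1 library above every E2f4 library, and E2f2 had moved to the place behind Mybl2. E2f8 and E2f1 overlapped at 48 h, with means of 22.0 and 21.4 FPKM.

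**Figure D1:**
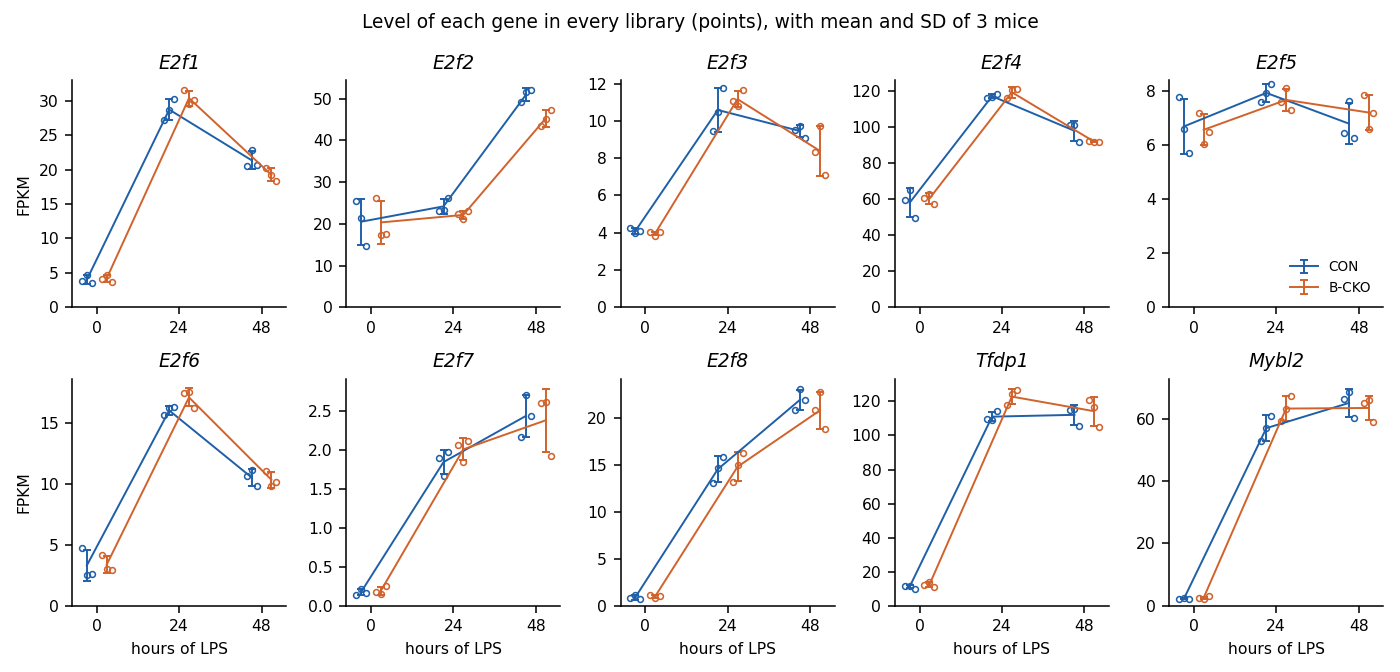
FPKM (linear axis from 0, a separate range for each gene) against hours of LPS in CON (blue) and B-CKO (orange) cells, with each library as an open point and the mean ± SD of 3 mice as a line with bars, the genotypes being drawn side by side at each time. Mybl2 climbs from 2.29 to 57.0 FPKM in CON cells between 0 and 24 h, E2f2 climbs only after 24 h, and E2f5 stays between 5.72 and 8.28 FPKM in CON libraries.

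The first comparison asks which of the genes changed as resting control B cells entered the cycle. In CON cells 8 of the 10 genes rose from 0 to 24 h and none fell, where 26.7% of 15531 genes tested were called higher and 30.7% lower. Folds are ratios of mean FPKM. Log2 fold changes and their standard errors (SE) were taken after adding 1 FPKM to each value, so they come out too small for genes with low levels. The threshold was an adjusted p under 0.05 from limma. The median log2 fold change over the members was 1.65, against -0.02 over all genes tested.

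Of the activators, E2f1 (gene ID 13555, chr2:154559400-154569892), which starts S phase and can also trigger apoptosis, was at 3.77, 4.72 and 3.51 FPKM at 0 h and at 27.2, 28.7 and 30.2 FPKM at 24 h in the 3 CON mice. No resting library came near an activated one, and the mean rose 7.18-fold (log2 fold change 2.58, SE 0.11, adjusted p = 1.10e-05). E2f3 (gene ID 13557, chr13:29906575-29986064), an activator needed for proliferation in many cell types, went from 4.25, 3.96 and 4.07 to 9.47, 10.5 and 11.8 FPKM, a 2.59-fold rise with no overlap (log2 fold change 1.18, SE 0.10, adjusted p = 1.49e-04). E2f2 (gene ID 242705, chr4:136172274-136196057), the activator known for a role in lymphocyte quiescence and autoimmunity in mice, stood apart from them. It was at 25.5, 21.4 and 14.6 FPKM at 0 h and at 23.0, 23.3 and 26.3 FPKM at 24 h, the groups overlapped, and the change was not called (log2 fold change 0.26, 95% confidence interval -0.21 to 0.73, adjusted p = 0.305). The resting mice differed more from each other in E2f2 than in any other activator, with an SD of 5.50 FPKM around a mean of 20.5 FPKM.

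Of the pocket-bound repressors, E2f4 (gene ID 104394, chr8:105297663-105305370), the main E2F of quiescent cells, was at 59.8, 65.0 and 49.3 FPKM in resting and at 116, 117 and 118 FPKM in activated CON cells. Its level rose 2.02-fold (log2 fold change 1.01, SE 0.10, adjusted p = 2.74e-04), so the most abundant E2F of the resting cell also gained the most FPKM of the 8 E2F genes. E2f5 (gene ID 13559, chr3:14578602-14606309), the second repressor of this kind, was at 7.78, 6.60 and 5.72 FPKM and then at 7.61, 7.94 and 8.28 FPKM. The groups overlapped and the change was not called (log2 fold change 0.22, 95% confidence interval -0.066 to 0.51, adjusted p = 0.158). Without the first CON library of 0 h, the highest of the 3, E2f5 passed at 0.32 (adjusted p = 0.0269).

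E2f6 (gene ID 50496, chr12:16810909-16826752), the Polycomb-linked repressor, was at 4.78, 2.56 and 2.60 FPKM at 0 h and at 15.7, 16.2 and 16.3 FPKM at 24 h. All activated libraries lay far above the resting ones, by 4.85-fold on average (log2 fold change 2.02, SE 0.20, adjusted p = 2.50e-04). The atypical repressors rose from the lowest starting levels. E2f7 (gene ID 52679, chr10:110745439-110787384) went from 0.14, 0.22 and 0.17 to 1.90, 1.67 and 1.97 FPKM, a 10.4-fold rise of the mean (log2 fold change 1.27, SE 0.062, adjusted p = 1.61e-05). E2f8 (gene ID 108961, chr7:48866429-48882073) went from 0.78, 1.20 and 0.77 to 13.1, 14.7 and 15.8 FPKM, 15.9-fold (log2 fold change 3.02, SE 0.13, adjusted p = 1.12e-05). At 24 h E2f8 was thus the more abundant of the atypical pair, at 14.6 against 1.85 FPKM.

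Tfdp1 and Mybl2 had the largest changes of the group on the log2(FPKM + 1) scale. Tfdp1 (gene ID 21781, chr8:13338725-13378448), which encodes DP1, the partner that typical E2F proteins need to bind DNA, was at 11.8, 11.7 and 10.1 FPKM at 0 h and at 109.6, 109 and 114 FPKM at 24 h. This was a 9.92-fold rise (log2 fold change 3.20, SE 0.074, adjusted p = 4.97e-06). Mybl2 (gene ID 17865, chr2:163054327-163084688) rose from 2.14, 2.43 and 2.29 to 52.8, 57.2 and 61.0 FPKM, or 24.9-fold (log2 fold change 4.14, SE 0.083, adjusted p = 4.97e-06). All 3 activated libraries of both genes were more than 9-fold above any resting one in FPKM. In FPKM gained, Tfdp1 came first of the 10 genes and E2f4 second.

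B-CKO cells made the same first step. The 8 genes that rose in CON cells were those that rose in B-CKO cells from 0 to 24 h, where 27.5% of 15551 genes were called higher and 32.3% lower. Mybl2 went from 2.52, 2.28 and 3.02 to 59.3, 63.2 and 67.4 FPKM (log2 fold change 4.16, SE 0.10, adjusted p = 2.24e-06), Tfdp1 from 12.3, 14.1 and 10.8 to 118, 124 and 126 FPKM (log2 fold change 3.21, SE 0.10, adjusted p = 2.97e-06) and E2f1 from 4.10, 4.69 and 3.72 to 31.6, 29.5 and 30.1 FPKM (log2 fold change 2.61, SE 0.089, adjusted p = 3.81e-06). All 3 were clear of their resting values in every library. E2f8 had a log2 fold change of 2.98, E2f6 of 2.06, E2f7 of 1.33, E2f3 of 1.29 and E2f4 of 0.97, with adjusted p-values from 5.00e-06 to 2.38e-05. E2f2 was at 26.2, 17.3 and 17.5 and then at 22.3, 21.1 and 23.0 FPKM in B-CKO mice, which overlapped (log2 fold change 0.14, adjusted p = 0.484). The first B-CKO library was high at rest, and without it both E2f2 (0.33, adjusted p = 0.00371) and E2f5 (0.26, adjusted p = 0.0329) passed. With all libraries E2f5 had a log2 fold change of 0.20 (adjusted p = 0.109), although its 3 libraries of 24 h (7.62, 8.11 and 7.32 FPKM) lay above those of 0 h (7.19, 6.06 and 6.48 FPKM).

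**Figure D2:**
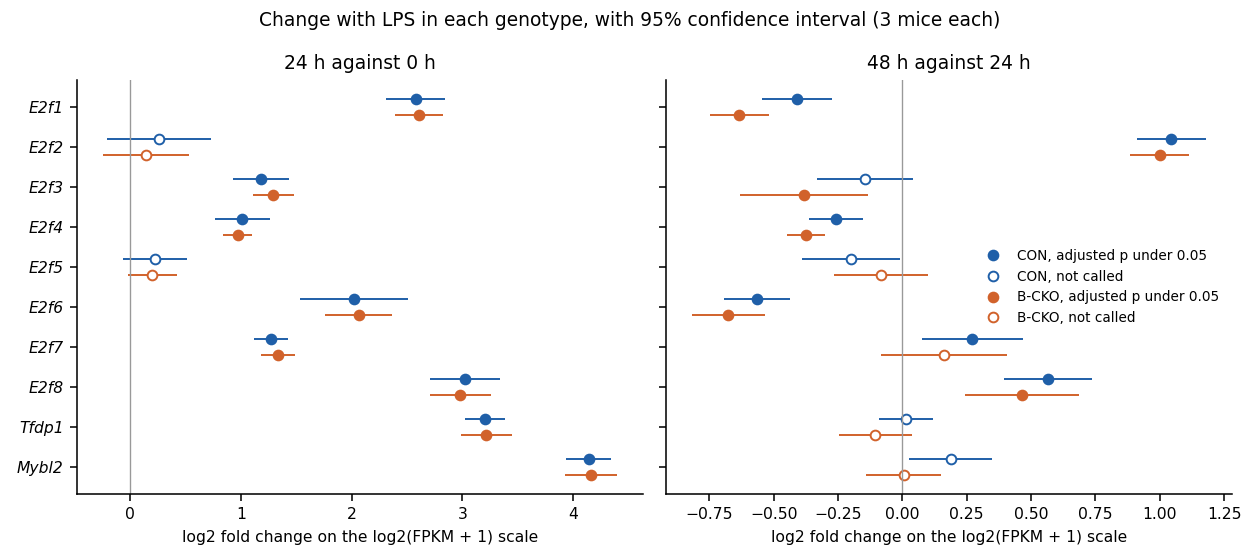
Log2 fold change with its 95% confidence interval from limma for 24 h against 0 h (left) and 48 h against 24 h (right), in CON (blue) and B-CKO (orange) cells, n = 3 mice per group, filled where the adjusted p was under 0.05. From 0 to 24 h all points lie at or right of 0.14, whereas from 24 to 48 h they spread from -0.68 to 1.05.

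The second comparison asks how the genes moved once cells had been activated for a day. It shares the 24 h libraries with the first. From 24 to 48 h in CON cells 3 genes rose (E2f2, E2f8 and E2f7) and 3 fell (E2f1, E2f4 and E2f6), where 20.1% of 15178 genes were called higher and 24.8% lower. The median over the members was -0.07, against -0.00474 over all genes tested.

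E2f2 had the largest change of this interval. It was at 49.1, 51.6 and 52.0 FPKM at 48 h, 2.10 times its 24 h mean of 24.2 FPKM, with every 48 h library above every 24 h library (log2 fold change 1.04, SE 0.056, adjusted p = 4.07e-05). E2f1 moved the other way, to 20.5, 22.9 and 20.7 FPKM, 0.744 of its 24 h mean, again with no overlap (log2 fold change -0.41, SE 0.057, adjusted p = 0.00133). E2f3, the remaining activator, was at 9.52, 9.74 and 9.09 FPKM, which overlapped its 24 h values (log2 fold change -0.14, adjusted p = 0.188). Hence the activators split: E2f1 was at its highest at 24 h and E2f2 at 48 h.

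E2f4 fell to 101, 101 and 91.5 FPKM, all below its 24 h libraries (log2 fold change -0.26, SE 0.044, adjusted p = 0.00330). E2f5 was at 6.47, 7.66 and 6.29 FPKM and did not pass (log2 fold change -0.20, adjusted p = 0.0829). It did pass without the second CON library of 48 h (-0.28, adjusted p = 0.0145). E2f6 fell to 10.7, 11.2 and 9.83 FPKM with no overlap (log2 fold change -0.56, SE 0.053, adjusted p = 2.72e-04), while staying above every 0 h library.

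The atypical repressors went on rising. E2f8 was at 20.9, 23.1 and 21.9 FPKM, 1.51 times its 24 h mean with no overlap (log2 fold change 0.56, SE 0.072, adjusted p = 8.96e-04). E2f7 was at 2.17, 2.71 and 2.44 FPKM, also above all 24 h libraries, but its call was narrow (log2 fold change 0.27, SE 0.082, adjusted p = 0.0330). The E2f7 call was lost without any of 5 of the 6 libraries, when its log2 fold change was 0.22 to 0.30 (adjusted p 0.0537 to 0.105). These were all 3 CON libraries of 24 h and the second and the third of 48 h. The E2f7 call was also lost with the library number as a block (0.27, adjusted p = 0.0788 from limma) and after rescaling to TPM (0.29, adjusted p = 0.0690).

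Tfdp1 was at 115, 116 and 105 FPKM at 48 h, which overlapped its 24 h values (log2 fold change 0.013, 95% confidence interval -0.093 to 0.12, adjusted p = 0.840). Mybl2 was at 66.5, 68.6 and 60.1 FPKM and overlapped its 24 h values by 1 library (log2 fold change 0.19, adjusted p = 0.0616). Leaving out the third CON library of 24 h or of 48 h took Mybl2 past the threshold (0.24 in both, adjusted p = 0.0441 and 0.0322). The 48 h mean was 1.01 times the 24 h mean for Tfdp1 and 1.14 times for Mybl2.

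In B-CKO cells 2 genes rose from 24 to 48 h and 4 fell, where 21.7% of 15253 genes were called higher and 24% lower. E2f2 rose from 22.3, 21.1 and 23.0 to 43.4, 45.1 and 47.2 FPKM (log2 fold change 1.00, SE 0.048, adjusted p = 1.70e-05) and E2f8 from 13.2, 15.0 and 16.3 to 20.9, 22.8 and 18.9 FPKM (log2 fold change 0.47, SE 0.093, adjusted p = 0.00588). E2f1 fell from 31.6, 29.5 and 30.1 to 20.2, 19.2 and 18.3 FPKM (log2 fold change -0.63, SE 0.048, adjusted p = 8.27e-05). E2f6 and E2f4 fell as well, by 0.68 and 0.37 on the log2 scale (adjusted p = 1.53e-04 and 1.16e-04). E2f3 went from 11.1, 10.8 and 11.7 to 8.33, 9.75 and 7.08 FPKM and was called lower (log2 fold change -0.38, SE 0.10, adjusted p = 0.0216), with the third library lowest. The E2f3 call was lost with the library number as a block (adjusted p = 0.0534) and without any of the 3 B-CKO libraries of 24 h or the first of 48 h (log2 fold change -0.41 to -0.35, adjusted p 0.0573 to 0.0768). E2f7 did not pass (log2 fold change 0.16, adjusted p = 0.254), but did without the third B-CKO library of 48 h (0.27, adjusted p = 0.0309). Mybl2 (0.0045), Tfdp1 (-0.11) and E2f5 (-0.082) had adjusted p-values from 0.201 to 0.972.

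Over the whole 48 h, 9 of the 10 genes were higher than at rest in CON cells, all but E2f5, where 26.5% of 15584 genes were called higher and 30.3% lower. The same 9 were higher in B-CKO cells, where 27.0% of 15695 genes were called higher and 30.7% lower. In CON cells Mybl2 ended 28.5-fold, E2f8 23.96-fold, E2f7 13.8-fold and Tfdp1 10.01-fold above its resting mean in FPKM. E2f1 ended 5.34-fold, E2f6 3.18-fold, E2f2 2.48-fold, E2f3 2.31-fold and E2f4 1.69-fold above. The B-CKO values were 24.4-fold for Mybl2, 20.8-fold for E2f8, 12.3-fold for E2f7 and 9.21-fold for Tfdp1. E2f5 had a log2 fold change of 0.024 in CON and 0.12 in B-CKO cells (adjusted p = 0.889 and 0.407).

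Since FPKM is a level per length, the 8 E2F genes can be added up and each expressed as a share of the sum. The sum was 97.7 ± 14.7 FPKM (SD, n = 3 mice) in CON cells at 0 h, 221 ± 7.64 FPKM at 24 h and 221 ± 8.08 FPKM at 48 h. E2f4 alone made up 59.5 ± 3.06% of it at rest, 53.0 ± 1.26% at 24 h and 44.2 ± 1.56% at 48 h. The share of the activators together was 29.1 ± 2.03%, 28.7 ± 0.98% and 36.9 ± 1.22% at the 3 times. Within them E2f2 went from 20.7 ± 2.92% to 10.9 ± 0.47% and back to 23.0 ± 1.15%, while E2f1 went from 4.12 ± 0.51% to 13.0 ± 0.24% and to 9.65 ± 0.34%. The atypical pair grew from 1.12 ± 0.24% to 7.41 ± 0.38% and 11.0 ± 0.49%. In B-CKO cells the sum was 99.9 ± 7.24, 225 ± 3.47 and 205.5 ± 2.76 FPKM, and E2f4 made up 60.5 ± 3.77%, 53.1 ± 0.67% and 44.7 ± 0.54% of it. At 48 h the lowest CON sum, 213.8 FPKM, was above the highest B-CKO sum, 208 FPKM. These shares are descriptions and were not tested.

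**Figure D3:**
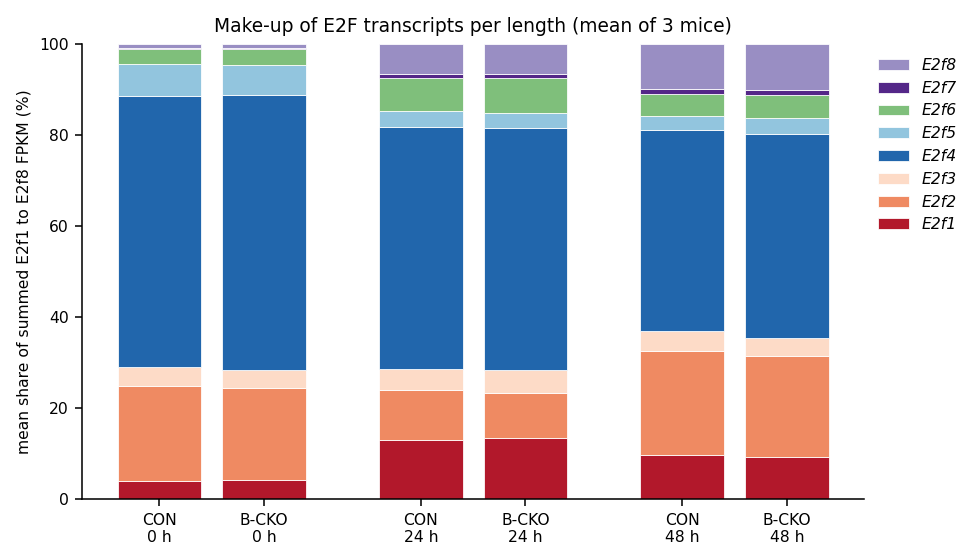
Mean share (%) of each E2F gene in the summed FPKM of E2f1 to E2f8, stacked to 100%, for CON and B-CKO cells at each time of LPS (n = 3 mice per bar, no error drawn). In CON cells the E2f4 block shrinks from 59.5 to 44.2%, the E2f2 block narrows to 10.9% at 24 h and widens to 23.0% at 48 h, and E2f7 with E2f8 reach 11.0%.

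The third comparison asks whether loss of Zbtb24 changed these levels, and none of the 10 genes passed the threshold at any of the 3 times. At 0 h no gene of the whole table passed (0.0% of 15641), 2.0% had an unadjusted p under 0.05 and 3.87% had all 3 B-CKO libraries on the same side of all 3 CON libraries. None of the 10 members had either. The largest difference was in Tfdp1, at 11.8, 11.7 and 10.1 FPKM in CON and 12.3, 14.1 and 10.8 FPKM in B-CKO mice, which overlapped (log2 fold change 0.13, 95% confidence interval -0.18 to 0.44). Within each same-numbered pair of libraries the B-CKO value was the higher for Tfdp1 and the lower for E2f3, and the other members went both ways. For E2f2 and E2f6 the intervals were widest, -0.59 to 0.59 and -0.52 to 0.61. Resting mice varied more than stimulated ones, with a median SD over genes of 0.17 (log2 scale) in CON cells at 0 h against 0.056 at 24 h and 0.074 at 48 h.

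At 24 h 0.0993% of 15104 genes were called, 16.3% had an unadjusted p under 0.05 and 20.1% had libraries that did not overlap. Among the members 0 were called, 1 had an unadjusted p under 0.05 and the same 1 did not overlap. This was Tfdp1, at 109.6, 109 and 114 FPKM in CON and 118, 124 and 126 FPKM in B-CKO cells. Every B-CKO library was above every CON library, by 1.11-fold on average (log2 fold change 0.14, SE 0.035, adjusted p = 0.134 from limma). Mybl2 was at 52.8, 57.2 and 61.0 FPKM in CON and 59.3, 63.2 and 67.4 FPKM in the B-CKO mice, overlapping (log2 fold change 0.15, 95% confidence interval -0.0043 to 0.30, adjusted p = 0.317). E2f1 differed by 0.079, E2f6 by 0.087, E2f7 by 0.081, E2f3 by 0.075, E2f4 by 0.026 and E2f8 by 0.023 on the log2 scale. E2f2 (-0.12) and E2f5 (-0.043) had the opposite sign. Over the members the median was 0.08, against -0.00464 over all genes.

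At 48 h 0.046% of 15210 genes were called, 7.71% had an unadjusted p under 0.05 and 11.1% had libraries that did not overlap. Among the members 0 were called and 2 were in each of the other classes, E2f1 and E2f2. E2f2 was at 49.1, 51.6 and 52.0 FPKM in CON and 43.4, 45.1 and 47.2 FPKM in B-CKO libraries, so each B-CKO library was lower (log2 fold change -0.17, SE 0.045, adjusted p = 0.398). E2f1 was at 20.5, 22.9 and 20.7 FPKM in CON and 20.2, 19.2 and 18.3 FPKM in B-CKO cells, also lower in each library (log2 fold change -0.14, SE 0.060, adjusted p = 0.645). E2f3 had -0.16 and E2f4 -0.089 on the log2 scale, E2f8 -0.076, Mybl2 -0.035, E2f7 -0.028 and E2f6 -0.024, all overlapping. Tfdp1 (0.025) and E2f5 (0.075) were on the other side of 0. The median over the members was -0.06, against -0.00554 over all genes. A p that missed the threshold does not show that the genotypes were alike, and the 95% confidence intervals at 24 and 48 h reached from -0.42 to 0.30 at the widest ends.

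**Figure D4:**
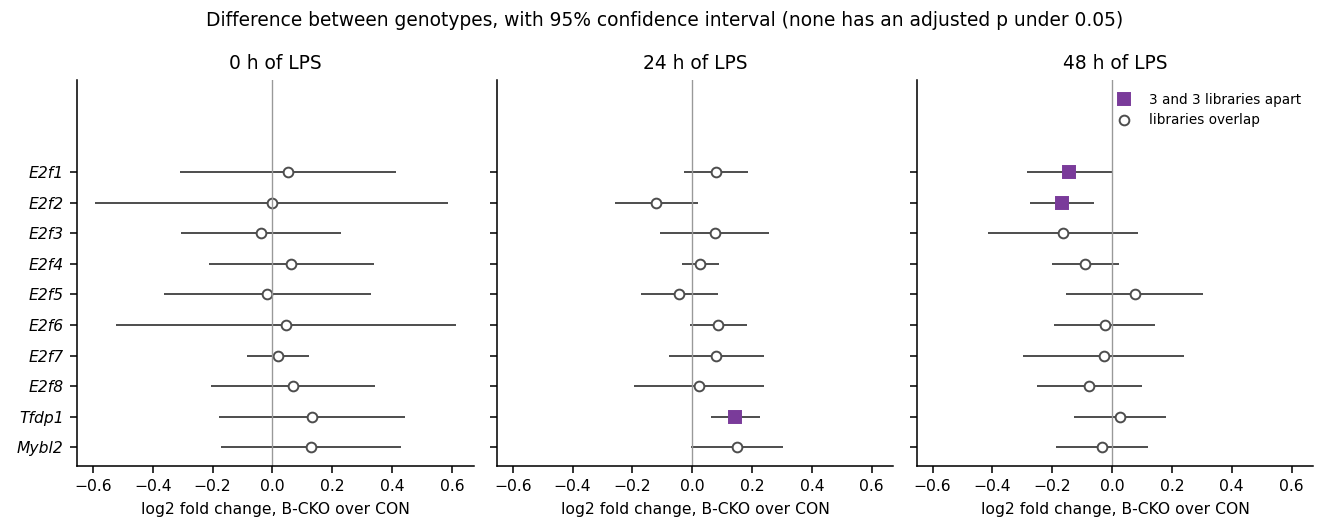
Log2 fold change of B-CKO over CON cells with its 95% confidence interval from limma at 0, 24 and 48 h of LPS, n = 3 mice per genotype, with purple squares where the 3 B-CKO libraries did not overlap the 3 CON libraries. Tfdp1 at 24 h (0.14) and E2f1 and E2f2 at 48 h (-0.14 and -0.17) are the members apart, and no point has an adjusted p under 0.05.

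Whether the genotypes differed in how the genes changed with time was tested as an interaction. For the step from 0 to 24 h, 0.0% of 16182 genes were called and 2.89% had an unadjusted p under 0.05, and 0 of the 10 members had either. The differences ran from -0.12 for E2f2 to 0.11 for E2f3. For the step from 24 to 48 h, 0.0% of 15844 genes were called and 7.31% had an unadjusted p under 0.05, among them 1 member, E2f1. Its fall was 0.22 steeper on the log2 scale in B-CKO cells (SE 0.076, adjusted p = 0.610 from limma). E2f3 (-0.24, adjusted p = 0.761) and E2f7 (-0.11, adjusted p = 0.879), which were called in only 1 of the genotypes over this step, were not shown to differ between them. Of the 10 members 9 had a negative value, and E2f5 had 0.12.

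The partners and inhibitors of the E2F proteins came first among the other genes of the pathway. In CON cells from 0 to 24 h Rbl1, which encodes the pocket protein p107, rose from 10.1 to 20.1 FPKM (log2 fold change 0.94, SE 0.089, adjusted p = 2.11e-04). Rbl2, the pocket protein of quiescence, fell from 18.8 to 8.92 FPKM (log2 fold change -0.99, SE 0.10, adjusted p = 2.76e-04), and Rb1 from 30.9 to 23.0 FPKM (log2 fold change -0.41, SE 0.069, adjusted p = 0.00255). Tfdp2, the other DP gene, fell from 3.11 to 1.70 FPKM (log2 fold change -0.59, SE 0.15, adjusted p = 0.0176), so that the DP genes went in opposite directions. From 24 to 48 h Rbl2, Tfdp2 and Rbl1 rose by 0.39, 0.29 and 0.16 and Rb1 had -0.051 (adjusted p = 0.452). None of the 4 was called between genotypes at 0, 24 or 48 h, and at 24 h 2 had an unadjusted p under 0.05, beside 16.3% of all genes, Rbl2 at -0.18 and Rbl1 at 0.13.

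Of 13 D cyclins, CDKs and CDK inhibitors, 7 rose and 4 fell from 0 to 24 h in CON cells, with a median of 0.86. Beside 26.7% higher and 30.7% lower over all genes, the share that fell was near that of all genes. Ccnd2, the main D cyclin of activated B cells, rose from 14.1 to 190.0 FPKM (log2 fold change 3.67, SE 0.081, adjusted p = 4.97e-06) and Cdk4 from 60.2 to 273 FPKM (log2 fold change 2.16, SE 0.057, adjusted p = 5.17e-06), and Ccnd3 rose by 1.59. Cdkn1b, which encodes the inhibitor p27 of resting lymphocytes, fell from 73.8 to 21.5 FPKM (log2 fold change -1.72, SE 0.13, adjusted p = 8.45e-05), and Cdkn2d and Cdkn1c fell by 0.70 and 0.54. Ccnd1 was the other gene to fall, by 0.41, from a level under 1 FPKM. From 24 to 48 h 7 rose and 3 fell, beside 20.1% and 24.8% of all genes. The inhibitors Cdkn2a, Cdkn2d and Cdkn1b rose most, by 1.79, 1.59 and 1.18, while Ccnd2, Cdk6 and Cdk4 fell by 1.02, 0.79 and 0.34. Between genotypes none of the 13 was called, and Ccnd2 at 24 h had the smallest adjusted p, at 216 FPKM in B-CKO against 190.0 FPKM in CON cells (log2 fold change 0.18, SE 0.022, adjusted p = 0.0586). Cdk2 and Cdk4 had 0.13 and 0.12 at 24 h, and the inhibitors Cdkn1a and Cdkn2a had -0.37 and -0.37 (adjusted p = 0.150 and 0.214). At 48 h the 13 lay between -0.12 (Cdkn1a) and 0.081 (Cdkn1b).

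Of the 10 other genes of the E2F6 complex (PRC1.6, a Polycomb group), 5 rose and 3 fell in CON cells from 0 to 24 h, whereas E2f6 itself rose 4.85-fold. Over all genes 26.7% rose and 30.7% fell, so the share of the complex that fell was near that of all genes. Cbx3, Wdr5, L3mbtl2, Pcgf6 and Max rose by 1.56, 0.98, 0.73, 0.70 and 0.58, and Rybp, Mga and Ring1 fell by 0.72, 0.64 and 0.52. Rnf2 (-0.22, adjusted p = 0.0683) and Yaf2 (0.19, adjusted p = 0.307) did not pass. From 24 to 48 h 8 of the 10 fell, as E2f6 and 24.8% of all genes did, by 0.25 (L3mbtl2) to 0.51 (Pcgf6), and Cbx3 and Yaf2 rose. None was called between genotypes at any time.

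Of 8 genes of the MuvB core, Foxm1 and the other MYB genes, 4 rose and 0 fell from 0 to 24 h in CON cells, beside 26.7% and 30.7% of all genes, with a median of 0.21. Foxm1, the factor that follows B-MYB to G2 genes, rose from 3.60 to 9.89 FPKM (log2 fold change 1.24, SE 0.12, adjusted p = 2.57e-04) and to 25.2 FPKM at 48 h (log2 fold change 1.27, SE 0.087, adjusted p = 8.76e-05), so that much of its rise came after that of Mybl2. Rbbp4, Mybl1 and Lin9 rose by 1.10, 0.52 and 0.38 in the first interval, and Lin37 (-0.059), Lin52 (0.050), Lin54 (-0.14) and Myb (-0.13) did not pass. In the second, in which Mybl2 itself was not called (0.19), Lin54 and Mybl1 rose by 0.35 and 0.28 and Lin52 fell by 0.29. None of the 8 was called between genotypes. Myb had the largest difference of them at 24 h (-0.27, adjusted p = 0.135), with all B-CKO libraries below all CON libraries. Rbbp4 (0.050) had all of them above. Libraries that did not overlap, in either direction, were seen at that time in 20.1% of all genes.

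The genes that E2F is known to drive at G1/S (36 genes, among them the MCM helicase and nucleotide synthesis) moved mostly upward over the interval in which E2f1 and E2f3 rose. From 0 to 24 h in CON cells 35 of 36 rose and 1 fell, beside 26.7% and 30.7% of all genes, with a median of 2.72 against -0.02. Rrm2, a ribonucleotide reductase subunit, rose from 4.26 to 122 FPKM (log2 fold change 4.55, SE 0.15, adjusted p = 6.46e-06), and Uhrf1, which keeps DNA methylation through replication, and Mcm10, an origin firing factor, by 4.28 and 3.91. Tyms, the thymidylate synthase, was among those that rose least, by 0.61. Cdt1, the licensing factor, was the gene that fell, from a resting level that varied widely between mice (95.3 ± 34.4 FPKM, SD, n = 3) to 45.4 ± 0.914 FPKM (log2 fold change -0.98, SE 0.27, adjusted p = 0.0203). From 24 to 48 h 13 genes of the list were higher and 7 lower, beside 20.1% and 24.8% of all genes, with a median of -0.03 against -0.0047. Tk1 and Rrm2 rose further, by 0.78 and 0.70, and Ung, Orc1 and Mcm2 fell by 1.01, 0.30 and 0.28. In B-CKO cells over that step 5 rose and 18 fell, beside 21.7% and 24% of all genes, with a median of -0.20. No gene of the list was called in the limma interaction of genotype with that step.

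The genes that B-MYB, MuvB and FOXM1 are known to drive in G2 and mitosis (30 genes) came up in both intervals. From 0 to 24 h 28 rose and 1 fell in CON cells, beside 26.7% and 30.7% of all genes, with a median of 2.90, and from 24 to 48 h, where 20.1% of all genes rose, all 30 did, with a median of 1.34. Ccna2, the cyclin of S and G2 phase, Top2a, which untangles DNA, and Birc5, which encodes survivin, rose most in the first interval, by 3.89, 3.73 and 3.65, and Hmmr rose least, by 1.27. Ccnb2, a mitotic cyclin, went from 2.19 to 15.4 and 93.7 FPKM (second interval: log2 fold change 2.54, SE 0.11, adjusted p = 2.21e-05). Over that second interval Mybl2 itself had a log2 fold change of 0.19, which was not called, and Foxm1 of 1.27. The gene that fell first was Cdc25b, a phosphatase of mitotic entry, from 49.2 to 9.27 FPKM (log2 fold change -2.29, SE 0.091, adjusted p = 9.26e-06), before it rose to 46.6 FPKM. Cenpa, the centromere histone, did not pass in the first interval (-1.06, adjusted p = 0.0822), with 22.6 to 85.6 FPKM among the resting CON mice. In B-CKO cells 28 rose and 2 fell in the first interval, beside 27.5% and 32.3% of all genes, and all 30 rose in the second, beside 21.7% of all genes, with a median of 1.25.

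**Figure D5:**
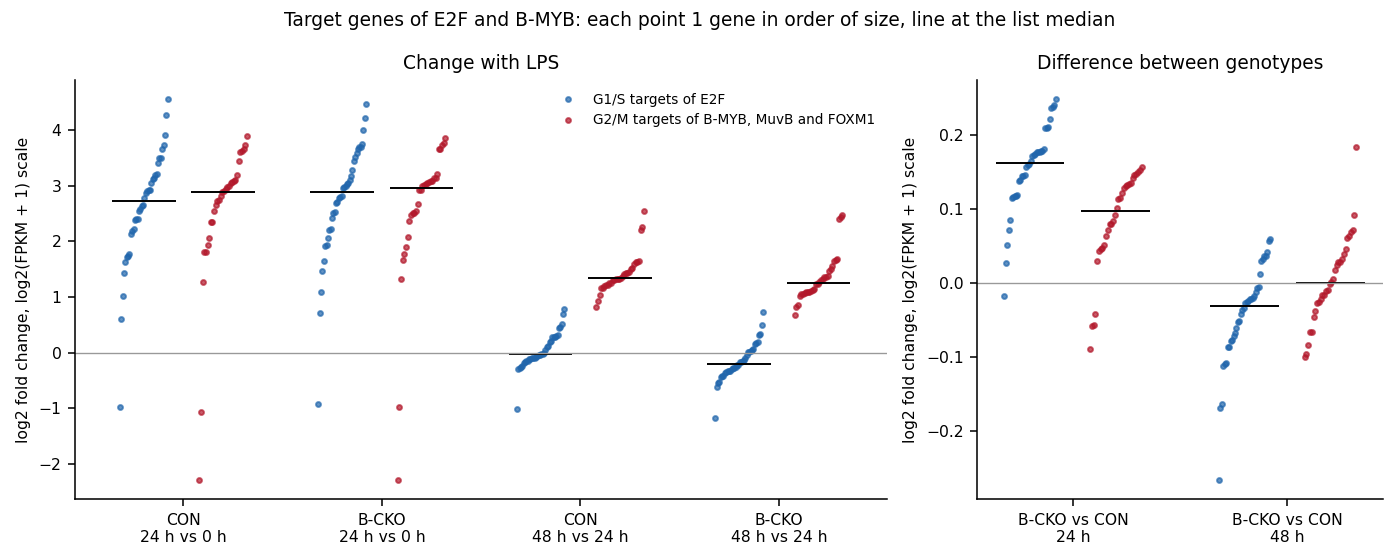
Log2 fold change of each G1/S target (blue, 36 genes) and G2/M target (red, 30 genes) with LPS in each genotype (left) and between genotypes (right, a finer axis), each point 1 gene in order of size and a line at the median. G1/S medians are 2.72 and then -0.03 in CON cells, G2/M medians 2.90 and 1.34, and between genotypes at 24 h the medians are 0.16 and 0.10.

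Between genotypes no gene of either target list was called. At 24 h 35 of the 36 G1/S targets had a positive difference, 26 had an unadjusted p under 0.05 and 24 had all B-CKO libraries above all CON libraries, with a median of 0.16. Over all genes 16.3% had such a p, and 20.1% had libraries apart in either direction, above or below. The list was not tested. Prim1, a primase subunit, had the smallest adjusted p, at 53.3 FPKM in CON and 63.1 FPKM in the B-CKO libraries (log2 fold change 0.24, SE 0.032, adjusted p = 0.0586), and Cdc6 (0.25) and Chaf1a (0.24) were of like size. Cdt1, Tk1 and Ccne1 had the lowest values (-0.017, 0.027 and 0.052). The G2/M targets had a median of 0.10 at 24 h, and 0 of 30 had an unadjusted p under 0.05. They ran from -0.090 for Cdc25c to 0.16 for Ccnb1. At 48 h the G1/S median was -0.03, with Ccne1, the G1/S cyclin, lowest at -0.27 (adjusted p = 0.159), followed by Cdt1 (-0.17) and Ccne2 (-0.16), all 3 with no overlap, as in 11.1% of all genes. Pola1, Cdc45 and Gins2 had the highest values, 0.059, 0.057 and 0.042. The G2/M targets lay between -0.10 (Mki67) and 0.18 (Cdc25b). In the interaction over 24 to 48 h all 36 G1/S targets were negative, 19 had an unadjusted p under 0.05 against 7.31% of all genes, and the median was -0.20, but the smallest adjusted p was 0.3995. Genes of a list are not independent of each other, and the same 3 libraries per group stand behind every one of them.

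Across the 18 libraries the members fell into patterns that can be described by Pearson's r of log2(FPKM + 1), with no test, since the libraries share 3 times and 2 genotypes. Mybl2 and Tfdp1 were most alike (r = 0.997), then E2f7 and E2f8 (0.994) and E2f8 and Mybl2 (0.992). E2f1 was closest to E2f3 (0.984), and E2f4 to E2f1 (0.982). E2f2 and E2f5 were the least like each other (0.123), and neither had an r over 0.692 with any other member. Among the 9997 genes that averaged 1 FPKM or more, Mybl2 was most like Trip13, Chaf1a and Ybx1 (r = 0.999 each), Tfdp1 like Exo1, Uhrf1 and Ezh2 (0.999 each) and E2f8 like Melk (0.999), Pclaf (0.999) and Rrm2 (0.998). E2f7 was most like Fancd2, Eme1 and Mthfd1l (0.995 each), E2f1 like Ybx3, Ipo11 and Psmd3 (0.997 each) and E2f6 like Rpf2 (0.996), Prmt7 (0.995) and Clns1a (0.995). E2f4 was most like Ywhaq (0.994), Nudc (0.993) and Armc6 (0.992), E2f3 like Nup205, Pidd1 and Ipo9 (0.990 to 0.991), E2f2 like Igsf8 (0.971), Spn (0.969) and Arl6ip1 (0.966), and E2f5 like Trmu (0.856), Zbtb3 (0.854) and Fadd (0.848).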

How the data were processed

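RNA of splenic B cells was sequenced as 18 libraries, 3 per genotype and time, each library from 1 mouse. The authors aligned paired reads to mm10 and deposited a table of FPKM for 16545 genes, which per the labels and methods came from Bowtie2 with Cufflinks and RSEM, while the submitters' processing notes also list BWA and DESeq2 (versions not given in the sources used here). Gene IDs were matched to RefSeq for 16512 genes. FPKM values are not counts, so the authors' DESeq2 test could not be repeated. The values were tested as log2(FPKM + 1) with limma 3.58.1 in R 4.3.3 (lmFit, eBayes with trend, two-sided, Benjamini-Hochberg adjustment over all genes tested, threshold 0.05). Only the libraries compared entered each fit, and genes at 0 in all of them were left out. The test was tried on simulated data first. Python 3.11.15, numpy 2.4.6, pandas 2.3.3 and matplotlib 3.10.9 made the summaries and figures.

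The members and gene lists were chosen with earlier results of these data known. All members were named. Of lists with more than 10 genes, the 3 highest and 3 lowest for 24 h against 0 h in CON cells and between genotypes at 24 and 48 h were named first, with genes called against the direction of their list. Other genes of these lists, such as those named for 48 h against 24 h or for the smallest adjusted p, were chosen after their values were seen. Some genes that these rules would name are not reported here, and they still count in the totals and sums of their lists. Library numbers were taken as pairs where the deviations of same-numbered libraries from their group means correlated over 0.1 in all 3 pairs, which held between B-CKO cells at 24 and 48 h (r = 0.126, 0.183 and 0.117) and between genotypes at 0 h. Alternatives were a pseudocount of 0.1, a test of genes that averaged 1 FPKM or more, values rescaled to TPM, median ratio scaling, the replicate number as a block, a single fit of all libraries and leaving out each library in turn. Library depth is unknown, and precision rests on 3 mice per group.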

Additional observations from a re-analysis of the deposited data

How the results depend on the processing

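No member that was called changed direction under any alternative, and the number of members called stayed within 1.5 times of the reported number in each comparison (for 48 h against 24 h in CON cells 6, with 5 with the replicate block or on the TPM scale, 7 with median ratio scaling and 8 among genes of at least 1 FPKM). No member was called between genotypes, or for a genotype difference in a time change, under any alternative. The replicate block ended 2 calls, E2f7 in CON cells (adjusted p = 0.0788) and E2f3 in B-CKO cells (adjusted p = 0.0534), both for 48 h against 24 h, and no other. At 0 h same-numbered CON and B-CKO libraries deviated together (r = 0.854, 0.468 and 0.789), and blocking them called no member. In the other comparisons outside B-CKO 24 and 48 h, r ran from -0.087 to 0.23 and same-numbered libraries were taken to share only a number. Every library deviated most like the one of its own number between genotypes at 24 h and between 0 and 24 h in B-CKO cells, a hint from the data, while 2 to 4 of 6 did in the rest of those comparisons. E2f5 passed for 24 h against 0 h with median ratio scaling (adjusted p = 0.0478 in CON and 0.0265 in B-CKO cells) and for 48 h against 24 h in CON cells among genes of at least 1 FPKM (0.0325). Mybl2 passed for 48 h against 24 h in CON cells among genes of at least 1 FPKM (0.0229) and with median ratio scaling (0.0358), and E2f7 lost its call there on the TPM scale (0.0690).

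Counts over all genes between genotypes moved more. At 0 h 0 genes were called, 2 among genes of at least 1 FPKM and 23 in a single fit of the 18 libraries. At 24 h the 15 became 388 among genes of at least 1 FPKM, 46 with a pseudocount of 0.1, 5 with the replicate block and 10 in the single fit, and 5 to 8 with 1 library left out. At 48 h the 7 became 29, 3 with the block and 11 in the single fit, and 0 to 6 with 1 library left out. The smallest adjusted p over all alternatives was 0.0616 for Tfdp1 and 0.126 for Mybl2 at 24 h. The cause of these shifts was not tested.

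Signs of uncalled differences reversed as follows. On the TPM scale Tfdp1 had -0.030 and Mybl2 -0.050 for 48 h against 24 h (CON and B-CKO cells), E2f5 had -0.17 (CON) and -0.081 (B-CKO) for 48 h against 0 h, and E2f2 had -0.017 for 24 h against 0 h in B-CKO cells. E2f2 had 0.000443 between genotypes at 0 h with median ratio scaling, and the Mybl2 interaction over 0 to 24 h had -0.023 with a pseudocount of 0.1 and -0.00424 on the TPM scale.
With 1 library left out in turn, log2 fold changes that changed sign ran from -0.011 to 0.056 for Tfdp1 (48 h against 24 h, CON), from -0.041 to 0.054 for Mybl2 (48 h against 24 h, B-CKO) and from -0.070 to 0.12 for E2f5 (48 h against 0 h, CON). Between genotypes they ran from -0.020 to 0.15 for E2f1, -0.22 to 0.16 for E2f2, -0.047 to 0.15 for E2f4, -0.11 to 0.082 for E2f5, -0.081 to 0.28 for E2f6 and -0.014 to 0.046 for E2f7 at 0 h, from -0.045 to 0.10 for E2f8 at 24 h, and from -0.070 to 0.014 for E2f6, -0.086 to 0.075 for E2f7, -0.090 to 0.015 for Mybl2 and -0.018 to 0.086 for Tfdp1 at 48 h. The interaction over 0 to 24 h ran from -0.073 to 0.10 for E2f1, -0.28 to 0.10 for E2f2, -0.12 to 0.073 for E2f4, -0.12 to 0.068 for E2f5, -0.19 to 0.17 for E2f6, -0.15 to 0.031 for E2f8, -0.047 to 0.10 for Mybl2 and -0.075 to 0.10 for Tfdp1. With a group of 2 libraries, its spread is pooled with that of the other group. The depth of the libraries is unknown, so no counting error could be set beside the lowest members, E2f7 and E2f8 at 0 h.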
